A study of Saccharomyces cerevisiae with 2 samples.

Results

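The mitochondrial DNA (mtDNA) of *Saccharomyces cerevisiae* carries 2 ribosomal RNA (rRNA) genes, and the pairs that their restriction fragments formed with nuclear DNA were examined here. Members were the *Msp*I fragments that overlap the 15S rRNA gene (mtDNA 6546-8194) or the 21S rRNA gene (mtDNA 58009-62447). This rule found 4 of the 171 mtDNA fragments seen in any pair, and 13835 fragments of all sequences were seen. Their nuclear partners could come from 13593 fragments outside the ribosomal DNA (rDNA), which gave the Mito-nDNA pairs, or from 46 rDNA fragments of chromosome XII, which gave the Mito-rDNA pairs.

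The counts came from genome conformation capture (GCC), in which cross-linked chromatin is digested and ligated, and each sequenced ligation product adds 1 count to a pair of fragments. Strain BY4741, a laboratory haploid, was grown at 30 °C in synthetic complete medium to an OD600 of 0.6, with glycerol lactate (respiration) in one condition and galactose (respiro-fermentation) in the other. Each condition had 1 library, in which the authors had combined 2 biological replicates. No error between replicates could therefore be given, every interval below covers counting error only at a level of 95%, and a difference between the media is a difference between these 2 libraries.

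The 15S and 21S rRNAs form the core of the small and the large subunit of the mitochondrial ribosome, which translates the few proteins encoded by mtDNA. Nearly all proteins of that ribosome are encoded in the nucleus and imported. The rDNA is the tandem array on chromosome XII that encodes the rRNAs of the cytosolic ribosome, and it is transcribed in the nucleolus. In many laboratory strains the 21S gene holds the omega intron, in which *SCEI* encodes the homing endonuclease I-SceI.

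The glycerol lactate library held 3221104 counts of uniquely mapped sequences, spread over 342659 pairs, and the galactose library 2338837, spread over 713131. All mapped sequences, which include those with more than one position, gave 10160059 and 8474217 counts. Mito-nDNA pairs made up 83910 of the unique counts in glycerol lactate and 26312 in galactose, a ratio of 3.19, while all unique counts differed by a ratio of 1.38 and those between different nuclear chromosomes by 0.498. Shares of the Mito-nDNA counts are used below for that reason.

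The 15S gene lay whole within 1 fragment (mtDNA:6223-8240, 2018 bp), 81.7% of which is gene. The 21S gene was cut into a left fragment (mtDNA:57862-60544, 2683 bp), a short fragment of 18 bp (mtDNA:60545-60562) and a right fragment (mtDNA:60563-62559, 1997 bp). *SCEI* (mtDNA:61022-61729) lay inside the right fragment. The tables annotate all 4 fragments as rRNA. By length the 15S, left and right fragments ranked 6, 4 and 7 among the 171 fragments, and the 4 members together covered 6716 of the 85779 bp of mtDNA, or 7.83%.

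All 4 members formed Mito-nDNA pairs in both media, nearly always with a count of 1. The 15S fragment had 1039 uniquely mapped Mito-nDNA counts in glycerol lactate and 364 in galactose. The 21S left fragment had 1506 and 571. The right fragment had 1673 and 683, the highest of the members in both media. The short fragment had 165 and 101, the lowest. Among the mtDNA fragments with such counts, the right fragment ranked 4 in both media, the left fragment ranked 5 in glycerol lactate and 6 in galactose, and the 15S fragment ranked 11 and 14.

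**Figure D1:**
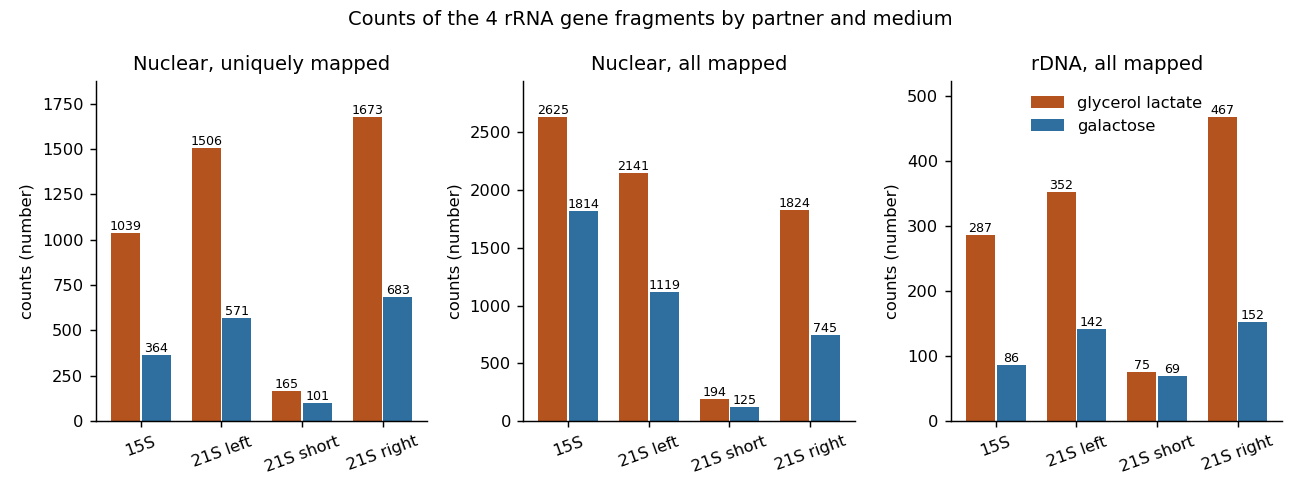
Counts (vertical axes, number) of the 15S fragment and the 3 fragments of the 21S gene with nuclear fragments outside the rDNA, uniquely mapped (left) and all mapped (middle), and with rDNA fragments, all mapped (right). Bars are 1 library per medium, with no replicate error; the 15S fragment had 1039 and 2625 counts in the glycerol lactate panels and 364 and 1814 for galactose, while the 21S right fragment went from 1673 to 1824 and from 683 to 745.

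Together the members held 4383 of the Mito-nDNA counts in glycerol lactate, a share of 5.22% (Wilson interval 5.07% to 5.38%), and 1719 in galactose, a share of 6.53% (6.24% to 6.84%). Both shares were below the 7.83% of mtDNA length that the members cover and above their 2.34% of the mtDNA fragments seen. Neither measure was matched for fragment length, and counts per kb were higher in short fragments. Their pairs numbered 3816 and 1611, of which 87.2% and 93.8% had a count of 1.

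Counts followed fragment length across the mtDNA, with a Spearman's rho of 0.88 in glycerol lactate and 0.89 in galactose over 171 fragments that share the same library. Long members were therefore set against the 19 mtDNA fragments of 1000 to 4000 bp, which include them. Per kb, the right fragment had 838 unique Mito-nDNA counts in glycerol lactate and 342 in galactose, and it ranked 2 of 19 in both. The 15S fragment had 515 and 180 per kb, ranks 18 and 17, and the left fragment had 561 and 213 per kb, ranks 16 and 13. The other 16 fragments had a median of 654 per kb in glycerol lactate (449 to 914) and of 237 in galactose (175 to 345). All members together had 653 and 256 per kb, close to these medians. In both media the right fragment of the 21S gene thus ranked near the top and the left in the lower part. These ranks were not closely matched for length, since the long members were longer than most of the 16. A fragment of 2421 bp (from mtDNA 73215) had 593 per kb in glycerol lactate and 242 in galactose. The longest mtDNA fragment (6972 bp, from mtDNA 17290), outside the 19, had 458 and 200. The left fragment (2683 bp) lay between these values in both media, so its low rank cannot be read as a trait of it. With all mapped sequences the order of the left and right fragments turned round in galactose. There the left fragment had 417 counts per kb (rank 6) and the right 373 (rank 9). In glycerol lactate the right fragment stayed above the left, but at ranks 7 and 12 they lay closer together.

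**Figure D2:**
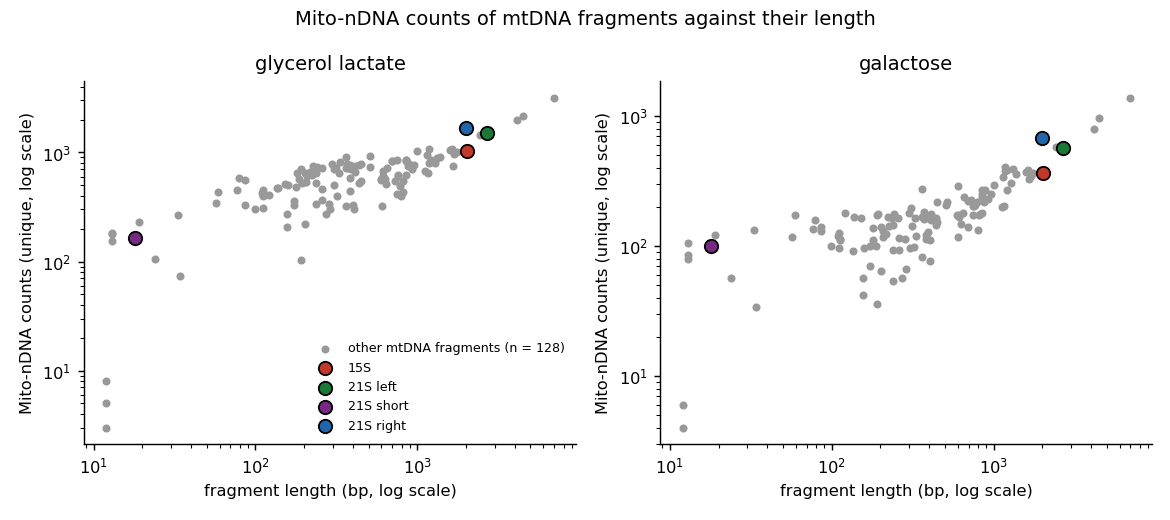
Uniquely mapped Mito-nDNA counts (vertical axis, log scale) of each mtDNA fragment against its length in bp (horizontal axis, log scale), in glycerol lactate (left) and galactose (right). Each point is 1 fragment; the 21S right fragment (1673 and 683 counts) lies above the 15S fragment of nearly the same length (1039 and 364 counts).

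Over whole genes, the 15S fragment had 0.723 times as many Mito-nDNA counts per kb as the 21S fragments in glycerol lactate (interval 0.675 to 0.775) and, for galactose, 0.625 times as many (0.557 to 0.702). With all mapped sequences these ratios became 1.47 and 2.12, and without the pairs that gained 20 counts or more from those sequences they were 0.797 and 0.697. The share of a fragment's own counts that had a nuclear partner outside the rDNA was similar for the 3 long members in uniquely mapped sequences. It was 20.9% for the 15S fragment, 23.5% for the left and 22.4% for the right fragment in glycerol lactate, and 15.2%, 16.8% and 15.7% in galactose. For the short fragment it was 6.14% and 5.54%. The order differed with all mapped sequences, where the 15S fragment had 27.2% in galactose, against 16.0% for the left and 15.6% for the right fragment.

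All 4 members had more Mito-nDNA counts in glycerol lactate, but by less than the median of the other mtDNA fragments, 3.42-fold. This was not particular to them. All 16 other mtDNA fragments of 1000 to 4000 bp were below that median too, such as the one starting at mtDNA 73215, with 1435 and 585 counts. The members together had 2.55 times as many as in galactose (interval 2.41 to 2.70), and the other mtDNA fragments together had 3.23 times as many (3.19 to 3.28). As shares, the ratio of glycerol lactate over galactose was 0.80 for the members (0.756 to 0.845). This direction belongs to shares of Mito-nDNA counts, and the ratio was 1.85 per all counts of the library and 5.12 per counts between different nuclear chromosomes. The ratio of shares was 0.895 for the 15S fragment (0.794 to 1.01), 0.827 for the left (0.751 to 0.911) and 0.768 for the right fragment (0.703 to 0.84). The short fragment had the lowest ratio of the 129 fragments with at least 20 counts in each medium, at 0.512 (0.40 to 0.656). The lowest of the other fragments, one of 13 bp from mtDNA 43991, was inside that interval at 0.547. Of those 129 fragments 23.3% were past 1.5-fold in either direction, and so was 1 of the 4 members, the short one. The calls of single members changed with all mapped sequences, where 28.7% of 150 fragments and 2 of the 4 members were past 1.5-fold. These were the 15S fragment at 0.598 (0.563 to 0.635) and the short fragment at 0.642 (0.512 to 0.803), while the left fragment was at 0.791 (0.736 to 0.85) and the right at 1.01 (0.929 to 1.10).

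**Figure D3:**
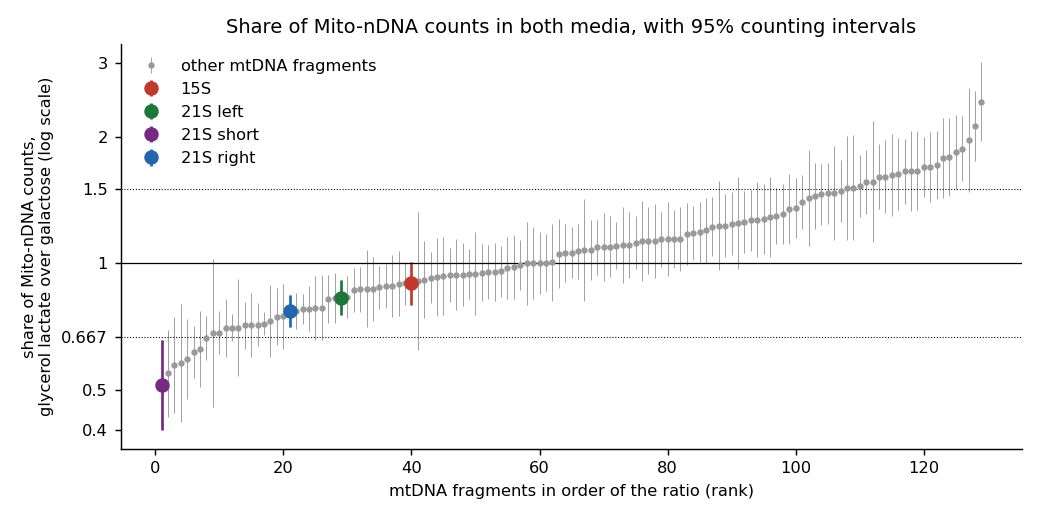
Share of Mito-nDNA counts in glycerol lactate over that in galactose (vertical axis, log scale) for the 129 mtDNA fragments with at least 20 unique counts in each medium, in order of the ratio (horizontal axis, rank from the lowest). Points are single fragments, bars are 95% counting intervals, and dotted lines mark 1.5-fold; in these uniquely mapped counts the 4 members lie below 1, at 0.895, 0.827, 0.768 and 0.512, and the interval of the 15S fragment reaches 1, whereas with all mapped counts (not plotted) the right fragment was at 1.01 and the 15S fragment at 0.598.

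At the cut-off of 3 counts that the study used against noise, 67 unique Mito-nDNA pairs of the members remained in glycerol lactate, which is 1.76% of their pairs (1.38% to 2.22%), against 1.64% of the pairs of all mtDNA fragments. In galactose 8 remained, or 0.497% (0.252% to 0.977%), against 0.305%. With all mapped sequences 87 remained in glycerol lactate, 2.04% against 1.87%, and 19 in galactose, 1.05% against 1.22%. The left fragment had 34 of the 67, which is 2.64% of its pairs (1.90% to 3.67%). The right fragment had 20, the 15S fragment 12 and the short fragment 1. The background was not matched for length. Long fragments other than the members had values such as 6 of 726 pairs (1284 bp, from mtDNA 51063), 33 of 1221 (2421 bp, from mtDNA 73215) and 122 of 2489 (6972 bp, from mtDNA 17290) in glycerol lactate. In galactose the right fragment had 4, the left and the 15S fragment 2 each, and the short fragment 0 of 99 pairs.

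The strongest single pair joined the 21S left fragment to a fragment of chromosome XV (chrXV:819400-823555), with 6 counts in glycerol lactate and 1 in galactose. It overlaps *PNT1*, which encodes a mitochondrial inner membrane protein, *RBL2*, a tubulin folding cofactor, and *HRK1* and *DSE3*. This nuclear fragment had 20 counts with all mtDNA fragments in glycerol lactate, so the left fragment supplied 6 of them. The right fragment was paired with chrVIII:480667-481263, over the TORC1 subunit gene *KOG1* and the Elongator subunit gene *IKI1*, at 4 counts in glycerol lactate and 0 in galactose. Another 4 counts joined it to chrV:26851-26932 in *HPA3*, with 0 in galactose. These are the first 2 in genome order of 8 pairs with 4 counts, 4 of the left and 4 of the right fragment.

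The highest pairs of the 15S fragment had 3 counts. In glycerol lactate there were 12, and the first 3 in genome order lay in *SWH1* (chrI:195065-195447), in the TFIID and SAGA subunit gene *TAF12* (chrIV:746567-747158) and over *NIC96*, a nuclear pore protein, and *YPI1* (chrVI:151812-152830). None of the 12 had a count in galactose. In galactose its highest pairs lay in *AIM3* (chrII:454869-455497) and in the inositol phosphatase gene *INP52* (chrXIV:421243-423230), each at 3 counts, and neither had one in glycerol lactate.

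In galactose the right fragment had 4 pairs of 3 counts and the left fragment 2. The named ones of the right fragment lay at chrI:44360-45383 in *ACS1*, which encodes an acetyl-coA synthetase, at chrIII:53297-53500 in *GID7* of the GID ubiquitin ligase, and at chrI:188874-190020, which is flanked by *MST28* and the carnitine acetyltransferase gene *YAT1*. The *ACS1* pair had 1 count in glycerol lactate, and the other 2 pairs had 0.

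Summed over the members, 3 nuclear fragments shared the highest unique count in glycerol lactate, 6. Beside the *PNT1* fragment these were chrX:570504-571393, over *LIA1* and *NPA3*, and chrXVI:866026-873435, over the kinase gene *SGV1*, the origin recognition gene *ORC4*, the translation factor gene *TIF3* and *MMS1*. Neither had a count with a member in galactose. In galactose the highest sum was 4, reached by 4 nuclear fragments, and the 3 named by rule were chrX:158280-158893 in *LCB3*, chrXI:599134-601558 over *PRP16* and *MRPL20*, a protein of the large mitochondrial ribosomal subunit, and chrVIII:44698-48405 over *ECM29* and *OCA5*. These had 1, 1 and 0 counts in glycerol lactate. No nuclear fragment was joined to all 4 members in either medium.

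The sets of partners differed between the media for most pairs. Of the members' unique pairs, 205 were seen in both media, which is 5.37% of those in glycerol lactate and 12.7% of those in galactose. For the other mtDNA fragments, which were not matched for length, 2.62% and 7.87% were seen in both. The right fragment shared 101 pairs (6.96% and 16.1%), the left 76, the 15S fragment 28 and the short fragment 0 of 150 and 99. None of the members' pairs reached 3 counts in both media, and 4 reached 2 in both. They were looked up after their values were seen and all belong to the 21S gene. The left fragment was paired with a fragment over *URH1* and the spore wall genes *DIT1* and *DIT2* (chrIV:1271821-1275371), with one flanked by *CMR3* (chrXVI:585885-589138) and with a Ty element fragment (chrVII:564425-571906). The right fragment was paired with chrXIV:314242-316649, over *APC1* and the mitochondrial phosphatidylserine decarboxylase gene *PSD1*.

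Of the 13593 nuclear fragments, 3291 (24.2%) were joined to a member in glycerol lactate, whereas galactose gave 1526 (11.2%). The 15S fragment reached 926 of them in glycerol lactate and the 21S fragments 2625, with 260 in common, which is 28.1% of the first set and 9.90% of the second. In galactose 47 were in common, 13.7% of the 343 partners of 15S and 3.82% of the 1230 partners of 21S. Partners were long, with a median of 969 bp in glycerol lactate and 935 bp in galactose against 569 bp for all nuclear fragments. The 12811 and 10737 nuclear fragments joined to any mtDNA fragment had medians of 592 and 634 bp. By another measure, the mean weighted by count, partners had a length of 1493 and 1393 bp for the members and of 1196 and 1193 bp for the others.

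Across the 16 nuclear chromosomes, the share of the members' unique counts followed chromosome length without the rDNA, with a Pearson's r of 0.99 in glycerol lactate and 0.97 in galactose. In all mapped sequences, where chromosome XII had 3.11 and 4.55 times its share of length, r was 0.52 and 0.35 and 16 of 16 chromosomes had a share of length outside the interval of their share of counts. In unique sequences, the share of length lay outside this interval for 1 of 16 chromosomes in glycerol lactate and for 2 of 16 in galactose. So few among 16 intervals can arise from counting error alone, and no chromosome was tested further. Chromosome XVI was outside in both media and lay below its length. It holds 7.87% of the nuclear length and had 6.89% of the members' counts in glycerol lactate (6.18% to 7.68%) and, for galactose, 6.57% (5.50% to 7.84%). Other mtDNA fragments gave it 7.53% and 7.59%. Chromosome XI, with 5.53% of the length, lay above it in galactose at 6.63% (5.55% to 7.91%) but not in glycerol lactate, at 5.59% (4.95% to 6.31%). For chromosomes XI and XVI the interval in galactose only just missed the share of length. Fragments within 20 kb of a chromosome end held 2.83% and 3.43% of the members' counts, against 2.90% and 2.91% of those of the other mtDNA fragments. Over all mapped sequences these values were 10.0% and 14.0% for the members and 9.34% and 15.2% for the others.

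Nuclear genes for the rRNAs of both compartments and for mitochondrial ribosomal proteins were set against all nuclear genes. A gene was counted as joined where a fragment that overlaps it had at least 1 unique count with a member. Of 5903 nuclear genes 60.5% were joined in glycerol lactate and 32.2% in galactose. For the synthesis, processing and modification of mitochondrial rRNA, 15 of 16 genes were found in the annotation, and 12 of 15 were joined in glycerol lactate and 6 of 15 in galactose. The median count per gene was 1 and 0, as for all genes. The mitochondrial RNA polymerase gene *RPO41* had 5 counts in glycerol lactate and 3 in galactose, *PET127*, which acts in mitochondrial RNA processing, had 6 and 1, and *RSM22*, which is also in the list of ribosomal proteins below, had 2 and 2.

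For rRNA synthesis by RNA polymerase I, 9 of 20 genes were joined in each medium, with a median of 0 counts in both. The topoisomerase I gene *TOP1* had 7 counts in glycerol lactate and 0 in galactose, *RPA190*, the largest subunit of the polymerase, had 3 and 3, and *RRN6* had 4 and 1. *NET1* also reached a sum of 5, with 3 and 2. Of the 54 genes named as mitochondrial ribosomal proteins, 29 were joined in glycerol lactate and 18 in galactose, again with medians of 1 and 0. *MRPL20* had 1 and 5 counts, *MRPL22* 4 and 0, and *MRPS35* 2 and 2. Counts per kb of the fragments of the 3 lists were between 0.308 and 0.314 in glycerol lactate, where all nuclear fragments had 0.364, and between 0.122 and 0.171 in galactose, where all had 0.143.

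With all mapped sequences, 3 pairs stood far above the rest. The 15S fragment was paired with chrXII:682484-687197 at 1361 counts in glycerol lactate and 1362 in galactose, where unique sequences gave 2 and 0. This nuclear fragment overlaps the condensin subunit gene *YCS4* and YLR271W (*CMG1* in the R64 annotation). The 21S left fragment was paired with chrXI:12603-17999 at 417 and 426 counts, with 3 and 1 unique counts. It overlaps *COS9*, a member of a subtelomeric gene family, and *SRY1*, and lies within 20 kb of a chromosome end. The left fragment also had 52 and 54 counts with the Ty element fragment of chromosome VII, with 3 and 2 unique ones.

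**Figure D4:**
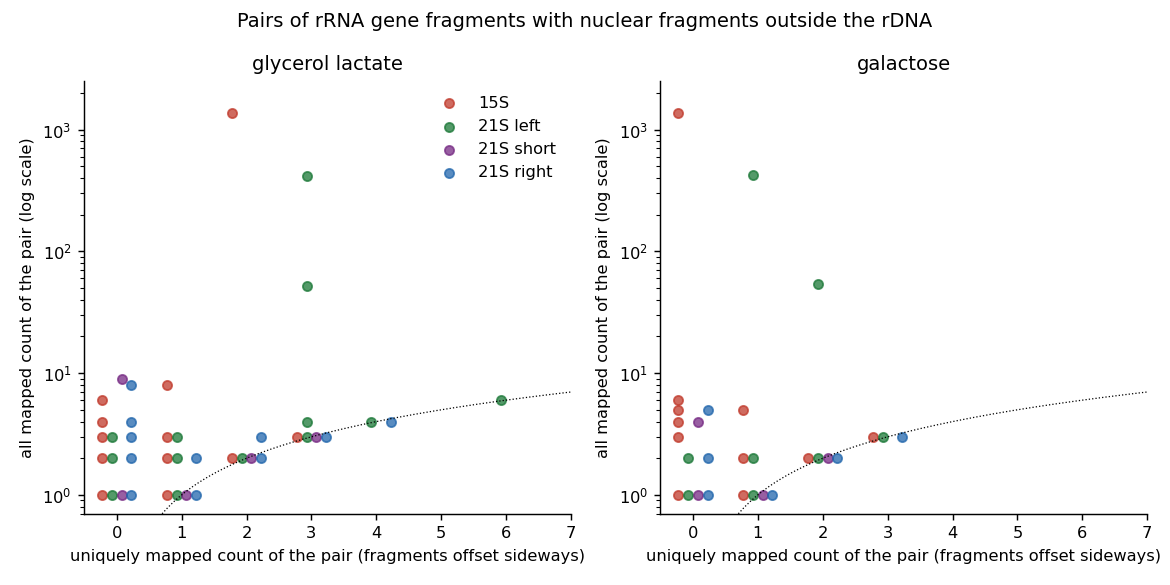
All mapped count (vertical axis, log scale) against uniquely mapped count (horizontal axis) of pairs of each member with nuclear fragments outside the rDNA, in glycerol lactate (left) and galactose (right). Each point stands for all pairs of 1 member with the same 2 counts, and the dotted line marks equal counts; 1 pair of the 15S fragment (1361 and 1362 all mapped counts) and 2 of the 21S left fragment (417 and 426, 52 and 54) stand apart in both media.

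These pairs had nearly equal counts in the 2 libraries. The ratio of glycerol lactate over galactose was 0.999 for the chromosome XII pair (0.927 to 1.08), 0.979 for the chromosome XI pair (0.855 to 1.12) and 0.963 for the chromosome VII pair (0.658 to 1.41). Unique Mito-nDNA counts of the members had a ratio of 2.55. Of the pairs of other mtDNA fragments, 66 gained at least 20 counts from unique to all mapped sequences in either medium. In 27 of them the gain reached 20 in 1 medium only. For the 39 that reached it in both, a choice that favours ratios near 1, the median ratio of their gains was 1.10, and 29 of the 39 were within 1.3-fold of equality.

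The chromosome XII pair alone held 51.8% of the counts that the 15S fragment had with nuclear partners in glycerol lactate, and 75.1% in galactose. It made up 73.6% and 79.4% of all counts of its nuclear fragment, whose counts with its neighbours on the chromosome were 351 and 145. Other mtDNA fragments had 32 and 6 counts with that fragment, at most 3 in a pair. On the chromosome XI fragment, other mtDNA fragments had 106 and 138 counts, at most 79 in a pair. With all mapped sequences the rank of the 15S fragment per kb rose to 4 of 19 in both media, and the share of the members' counts on chromosome XII rose from 9.29% to 27.4% in glycerol lactate and from 7.85% to 40.0% in galactose.

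The gain was uneven among the members. From unique to all mapped sequences, Mito-nDNA counts of the 15S fragment grew 2.53-fold in glycerol lactate and 4.98-fold in galactose. Those of the left fragment grew 1.42-fold and 1.96-fold, those of the short fragment 1.18-fold and 1.24-fold, and those of the right fragment 1.09-fold in both. The 3 pairs named above held 75.9% and 88.2% of the members' gained counts. Deposited counts of all mapped sequences do not show which position of a sequence was the true one.

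Mito-rDNA counts were taken from all mapped sequences, since the reference holds 2 copies of the repeat. The 15S fragment had 287 counts in glycerol lactate and 86 in galactose, the left fragment 352 and 142, the short fragment 75 and 69, and the right fragment 467 and 152. The right fragment was again the highest. Together the members held 1181 of 34954 Mito-rDNA counts in glycerol lactate, 3.38% (3.19% to 3.57%). For galactose these were 449 of 11709, or 3.83% (3.50% to 4.20%).

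Per kb the right fragment had 234 and 76.1 rDNA counts, ranks 7 and 10 of the 19 like-sized fragments. The left fragment had 131 and 52.9, ranks 19 and 17, and the 15S fragment 142 and 42.6, ranks 18 and 19. The lowest of the other 16 fragments had 144 in glycerol lactate and 51.3 in galactose. The 15S fragment was thus below all 16 in both media, though only just in glycerol lactate, and the left fragment in glycerol lactate. These low ranks cannot be read as a trait of the rRNA gene fragments, since both members were longer than most of the 16. The longest mtDNA fragment (6972 bp, from mtDNA 17290) had fewer than either, 90.6 and 34.1 per kb. With the fewer uniquely mapped counts, the 15S and left fragments ranked 12 and 13 in glycerol lactate and 18 and 16 in galactose.

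Among Mito-rDNA pairs with members, 128 of 158 had at least 3 counts in glycerol lactate (81.0%) and 76 of 133 in galactose (57.1%), where all mtDNA fragments had 76.6% and 33.2%. This background was not matched for length. In galactose, long fragments other than the members had values such as 13 of 38 pairs (1695 bp, from mtDNA 28151), 22 of 39 (1207 bp, from mtDNA 26194) and 37 of 43 (6972 bp, from mtDNA 17290). Counts of the members were higher in glycerol lactate by 2.63-fold (2.36 to 2.93), and those of other mtDNA fragments by 3.0-fold (2.94 to 3.06). The short fragment differed least among the members, 1.09-fold (0.784 to 1.51), and its share ratio of 0.364 ranked 145 of 149 fragments from the highest. The lowest of the other fragments was at 0.276. Of the 149 fragments, 40.9% were past 1.5-fold in either direction, against 1 of the 4 members.

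Relative to their nuclear counts, members had fewer rDNA counts than the other mtDNA fragments of all lengths together. This comparison was not matched for length, with which the ratio varied among other fragments. In glycerol lactate the longest (6972 bp, from mtDNA 17290) had 632 rDNA and 3544 nuclear counts, and the members 1181 and 6784. A fragment of 13 bp (from mtDNA 9505) had 340 and 797. With all mapped sequences for both, the ratio of rDNA to nuclear counts was 0.624 times that of other mtDNA fragments in glycerol lactate (0.586 to 0.664) and, for galactose, 0.514 times (0.465 to 0.568). Without any Mito-nDNA pair that gained 20 counts or more, it was 0.779 and 0.777. With uniquely mapped sequences it was 0.91 (0.732 to 1.13) and 0.818 (0.54 to 1.24), and these intervals include 1.

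Along the rDNA repeat, the members' counts were spread over all parts. In reference order the 21 fragments that both copies hold at equal length run from a spacer through the genes of the large-subunit rRNAs and the 18S gene to further spacers. The members' counts in the copies summed to 517 and 531 in glycerol lactate and to 205 and 201 in galactose. Of these counts, large-subunit rRNA fragments held 47.4% in glycerol lactate (44.4% to 50.5%) and, for galactose, 55.4% (50.6% to 60.2%), at 52.3% of the length. The 18S fragments held 19.1% and 17.2% at 26.1% of the length, and fragments with spacers only held 33.5% and 27.3% at 21.6% of it. Other mtDNA fragments had 51.6% and 51.8%, 15.8% and 14.8%, and 32.6% and 33.4%. Over the 21 fragments the members' counts correlated with those of other mtDNA fragments at a Pearson's r of 0.87 in glycerol lactate and 0.78 in galactose, with both from the same library.

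**Figure D5:**
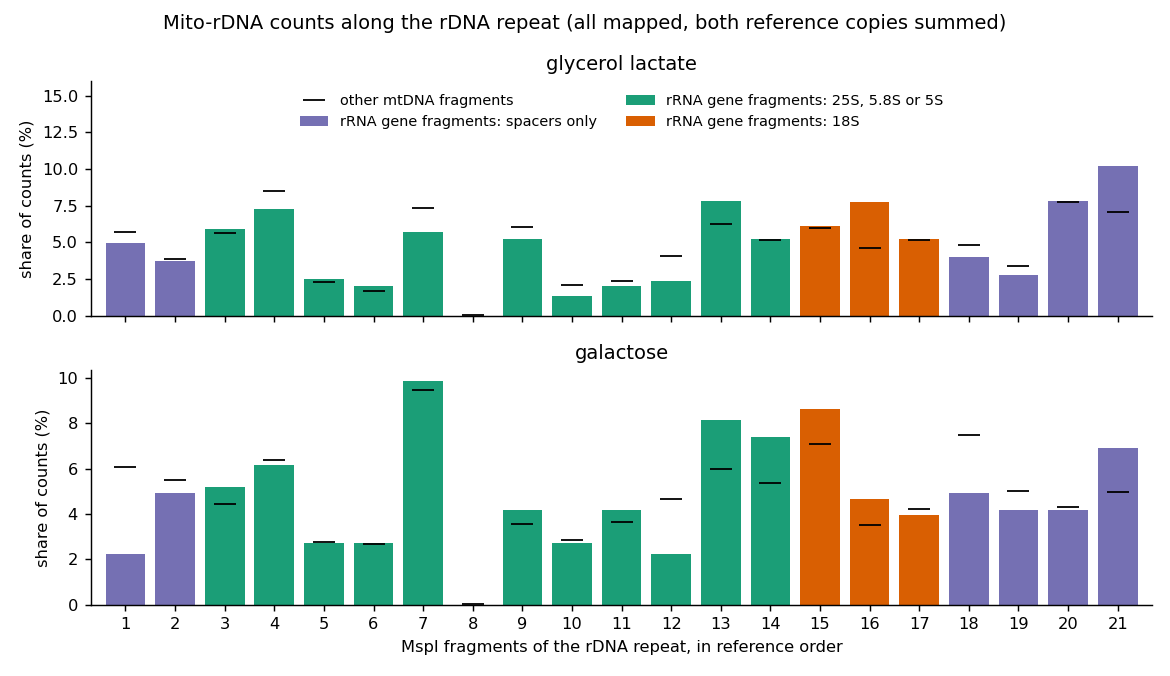
Share of Mito-rDNA counts in percent (vertical axes) on each of the 21 fragments of the rDNA repeat, in reference order (horizontal axis), for the members (bars, coloured by annotation) and for other mtDNA fragments (black marks), in glycerol lactate (top) and galactose (bottom). Counts of both reference copies are summed; 18S fragments held 19.1% and 17.2% of the members' counts and fragments with spacers only 33.5% and 27.3%.

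By single reference position, the rDNA fragment with the most counts was a spacer at the junction of the 2 reference copies (chrXII:460026-460610), with 83 counts from members in glycerol lactate and 22 in galactose. It lies in the reference once, whereas counts of the fragments that both copies hold are split over 2 positions. Next in glycerol lactate came the 2 copies of a spacer fragment (chrXII:467776-468434 and chrXII:458639-459297) with 54 and 53 counts, and 12 and 16 in galactose. In galactose the 2 copies of a 102 bp fragment of the large-subunit rRNA genes (chrXII:453471-453572 and chrXII:462608-462709) had 20 counts each, and 31 and 29 in glycerol lactate. With copies summed, the junction spacer was not the highest. The spacer fragment with 2 copies then had 107 counts in glycerol lactate, and the 102 bp fragment 40 in galactose. Uniquely mapped Mito-rDNA counts of the members lay on 2 fragments only, the junction spacer with 70 and 18 and its neighbour (chrXII:459298-460025), annotated to a large-subunit rRNA, with 17 and 6.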

How the data were processed

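Tables of 2 GCC libraries were analysed. The authors positioned reads with SOAP without mismatches, assembled pairs with Topography v1.19, combined replicates and deposited raw counts per fragment pair, unnormalized, as uniquely mapped and all mapped tables. Copies made by amplification were not separated from independent ligations, so intervals are too narrow. All mapped counts may place a repeat sequence at a wrong position. Fragment positions follow the tables' reference, printed from base 1; gene names come from the tables' annotation and, for synonyms, the RefSeq R64 gene table, and no nuclear position was taken from R64.

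Each pair is listed in both orders and was counted once. Shares have 95% Wilson intervals and ratios have intervals on the log scale. With 1 library per medium no test was made. Members and gene lists were chosen with earlier results of these data known. Genes were named at the 3 highest unique pairs (at least 3 counts) per rRNA gene and medium, the 3 highest sums over members, the 3 largest gains to all mapped sequences and the 3 highest rDNA fragments, with ties by the other medium and then genome order, and the 3 highest of each list. Computations were tested on simulated data. Computations used Python 3.11.15 with pandas 2.3.3, numpy 2.4.6, matplotlib 3.10.9 and scipy 1.17.1. Alternatives covered mapping, cut-off, distinct pairs, membership, chromosome ends and denominators. Ligation controls gave 0 counts with the members.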

Additional observations from a re-analysis of the deposited data

Results flagged for a closer look

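The members also had counts with the 2-micron plasmid, a multicopy nuclear plasmid outside the comparisons above. Uniquely mapped sequences gave 123 counts in glycerol lactate and 53 in galactose. Lambda, added before ligation in galactose, and pUC19, added after ligation, had 0 with the members, but they cannot serve as a measure of background here. Lambda had 13 counts with all mtDNA in galactose, so a 0 among them allows a share of up to 23.1%, and pUC19 had 1 in glycerol lactate. The members held 5.18% of the mtDNA counts with the plasmid in glycerol lactate (4.36% to 6.14%), and for galactose this was 6.31% (4.86% to 8.16%), and their shares of Mito-nDNA counts were 5.22% and 6.53%. By member, the 15S fragment had 30 and 20, the 21S left fragment 35 and 14, the short fragment 11 and 4, and the right fragment 47 and 15.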

How the results depend on the processing

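Of 53 alternative values, 16 stayed within the counting interval of the reported value (counts of pairs within 1.5 times), 33 moved outside it and 4 changed direction. All mapped sequences reversed the ratio of 15S over 21S counts per kb, to 1.47 in glycerol lactate and 2.12 in galactose. The share ratio between the media became 1.85 per all library counts and 5.12 per counts between different nuclear chromosomes, which themselves differed between the libraries, and 0.737 with all mapped sequences. At 3 counts or more, the Mito-nDNA shares were 5.47% in glycerol lactate and 8.63% in galactose, the media ratio 0.633, the 15S over 21S ratios 0.476 and 0.776, the relative rDNA to nuclear ratios 0.299 and 0.35, and the Mito-rDNA share in galactose 4.98%. Without the 21S right fragment, Mito-nDNA shares were 3.30% and 4.04% and Mito-rDNA shares 2.07% and 2.57%. All mapped sequences gave a Mito-nDNA share of 7.20% in galactose. Uniquely mapped sequences gave Mito-rDNA shares of 4.77% and 5.41% and relative rDNA to nuclear ratios of 0.91 and 0.818, on 2 rDNA fragments. Distinct pairs gave Mito-rDNA shares of 2.61% and 2.79%. Counts per fragment gave 15S over 21S ratios of 0.932 and 0.806. An alternative chosen after the data were seen used all mapped sequences without the 69 pairs that gained 20 counts or more, 3 of them with a member. It gave Mito-nDNA shares of 4.30% and 4.88%, a media ratio of 0.881, relative rDNA to nuclear ratios of 0.779 and 0.777, and a 15S over 21S ratio of 0.797 in glycerol lactate. Pairs at the cut-off numbered 489 and 100 at 2 counts, 9 and 0 at 4 counts, and 19 in galactose with all mapped sequences. The cause of these changes was not tested. Of 40 values of named pairs, 34 were within 1.5 times under all mapped sequences and 6 rose by more. No paired analysis was possible because each medium has 1 library of combined replicates. Counts of 1 to 6 per pair limit every statement on single pairs.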

Other observations

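Within mtDNA, the 15S fragment had 16 uniquely mapped counts with the 21S left fragment and 14 with the right fragment in glycerol lactate, and 4 and 6 in galactose. Over the 168 mtDNA fragments that are not adjacent to it, the median was 2 counts (mean 7.67) with glycerol lactate and 0 (mean 2.95) with galactose. This baseline was not matched for length and includes many very short fragments, while the left and right fragments are among the longest. The left and right fragments of the 21S gene, which the short fragment separates, had 1154 and 628 counts with each other. In galactose the right fragment had 125 counts with itself and the left fragment 13, against 7 and 0 in glycerol lactate. Such counts were higher in galactose for mtDNA as a whole, with 1718 over all mtDNA fragments against 152 in glycerol lactate, and up to 161 against 14 in a fragment other than the members.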
